A study of Mus musculus with 24 samples.

Results

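Liver RNA-Seq of FGF21-treated lipodystrophic mice was compared with that of vehicle-treated control mice, to measure how much of the genotype difference in liver remained under treatment. The comparison took the 8 libraries titled KO.Tx and the 7 titled WT.Veh, which are 15 of the 24 libraries of the series, and all 23972 genes of the count table. All mice were females homozygous for the floxed *Lmna* allele (exons 10 and 11). The lipodystrophic mice (LmnaADKO) also carried *Adipoq*-Cre, which is active in adipocytes and not in hepatocytes, and the controls carried no Cre. The mice were 12 to 14 weeks old when the experiment began and were housed at 22°C. They ate a diet with 60% of its calories from fat for 4 weeks before treatment and until they were euthanized 8 weeks after it. The labels call the treatment of KO.Tx a Rescue, which by the study's methods is an AAV8 vector that encodes mouse FGF21, and WT.Veh received the vehicle solution. The 6 libraries of vehicle-treated lipodystrophic mice (KO.Veh) and the 3 of FGF21-treated controls (WT.Tx) were in the same fit and serve as reference points. KO.Tx and WT.Veh differ in both genotype and treatment, so these cannot be told apart in this comparison alone.

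Lipodystrophy is a loss of adipose tissue. The liver is one of the organs it affects most, since it takes up circulating fatty acids, makes new ones, and keeps what it does not burn or secrete as triglyceride in lipid droplets. FGF21 is a hormone made mainly by the liver. It acts through FGF receptors that need the co-receptor β-klotho, encoded by *Klb*, and it lowers body weight and improves insulin sensitivity in obese rodents.

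The gene counts of the 15 libraries summed to 19940258 to 21510054 each. Values are given as CPM, the reads of a gene relative to the library total after TMM scaling. A gene was called at an adjusted P below 0.05 in edgeR's quasi-likelihood test (Benjamini-Hochberg adjustment, all genes tested) and a change of more than 1.5-fold. Libraries are numbered within each group in ascending order of animal number. Some libraries stand apart. For 9694 protein-coding genes, log2 CPM was taken relative to the gene's median over libraries of the same genotype. In KO.Tx 7 and WT.Veh 3 this relative level fell with gene length (slopes of -0.331 and -0.154 per log2 of length). Slopes of the other KO.Tx and WT.Veh libraries ran from -0.109 to 0.123. Animal numbers have 3 digits in KO.Tx 1 to 4 and in 6 of the 7 WT.Veh libraries, and 4 digits in KO.Tx 5 to 8 and in 5 of the 6 KO.Veh libraries. What the number of digits stands for is not given in the sources used here.

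The labels were checked against the genes they concern. *Lmna* was detected in every library, at 15.7 to 22.1 CPM in WT.Veh and at 19.6 to 33.7 CPM in KO.Tx, and because the deletion is in adipocytes, its level in liver does not check it. *Fgf21* was at 1.9, 2.8, and 10.8 CPM in WT.Veh (lowest, median, highest) and at 2.19, 4.81, and 9.99 CPM in KO.Tx. The groups overlapped fully (log2 fold change 0.41, SE 0.364, adjusted P = 0.53 from edgeR), so counts on *Fgf21* do not check the treatment label. *Klb* was at 29.4 to 37.3 CPM in WT.Veh and at 20.2 to 43 CPM in KO.Tx (log2 fold change -0.11, adjusted P = 0.684 from edgeR), and *Fgfr4*, the main FGF receptor of hepatocytes, at 27.3 to 35.3 and 22.4 to 34.2 CPM (log2 fold change -0.17, adjusted P = 0.232 from edgeR). None of the 15 genes listed for FGF21 signalling was called by edgeR on all libraries, and 1 was called lower by DESeq2, by edgeR after filterByExpr, and by edgeR without KO.Tx 6 or WT.Veh 1.

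Many genes still differed between KO.Tx and WT.Veh. Of 23972 genes, 1168 (4.87%) were called in KO.Tx relative to WT.Veh, 729 higher (3.04%) and 439 lower (1.83%). In vehicle-treated mice, 2033 genes (8.48%) were called in KO.Veh relative to WT.Veh, 1227 higher (5.12%) and 806 lower (3.36%). Fewer calls in KO.Tx than in KO.Veh were thus seen over all genes, so a lower count in a gene list is not by itself particular to that list. The share of all genes called in the same direction is given beside most list counts. Both comparisons use the same 7 WT.Veh libraries, so their fold changes are not independent and are set side by side here. The median log2 fold change over all genes was 0.01 in KO.Tx relative to WT.Veh. The 8 KO.Tx libraries did not overlap the 7 WT.Veh libraries in 585 genes (2.44%). Genes named for the highest or lowest ratio of KO.Tx to WT.Veh were chosen among called genes without overlap. Their lack of overlap was thus a condition of choice and not a finding. Those at the low end were *Cyp2c69*, *Cyp2c40*, *Slc22a26*, *Igfbp2*, *Enho*, *Serpinb1a*, *Cux2*, *Cyp2c23*, and *Spsb4*. Those at the high end were *Gm48795*, *Gm7049*, *Cidec*, *Serpina12*, *Gprc5b*, *Slc10a2*, *Scd1*, *Snhg11*, *Cdkn1a*, and *Smpd3*. With the adjusted P threshold alone, 2192 genes differed, and in the 4 KO.Tx and 6 WT.Veh libraries with 3-digit animal numbers 533 genes were called. In that smaller set 36 of the 86 called genes chosen by rule lost their call, among them *Cyp2c69*, *Igfbp2*, *Mup20*, *Cyp1a2*, *Fdps*, *Scd1*, *Pfkfb1*, *Col4a2*, and *Spp1* described here, and none changed direction.

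The difference between the lipodystrophic groups was tested directly, as KO.Tx relative to KO.Veh in the same fit. No gene was called by edgeR (0 of 23972, 0.0%), and 1608 genes had an unadjusted P below 0.05. DESeq2 called 15 genes, 7 higher and 8 lower. The count rested on 1 library, KO.Tx 3. Without KO.Tx 3, edgeR called 61 genes, 21 higher and 40 lower in KO.Tx. Among the libraries with 4-digit numbers, 4 KO.Tx and 5 KO.Veh, it called 2. Where a gene was called in KO.Veh and not in KO.Tx, the interval of the difference between these groups is given.

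To give each library 1 value, libraries were placed on an axis from control to knockout. The axis is the difference between the mean log2 CPM of the 14 KO libraries and that of the 7 WT.Veh libraries over the 12492 genes whose log2 CPM averaged 0 or more. It is scaled to 0 at the WT.Veh mean and 100 at the mean of the KO libraries. KO.Veh libraries lay at 95.5, 112.6, and 125.2 (lowest, median, highest), and KO.Tx libraries at 71.2, 83.4, and 130.8. Of the 8 KO.Tx libraries, 6 lay below every KO.Veh library, and KO.Tx 3 (130.8) and KO.Tx 7 (108.6) did not. The 3 WT.Tx libraries lay at 4.6, 6.0, and 7.5, within the WT.Veh range of -16.2 to 22.3.

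**Figure D1:**
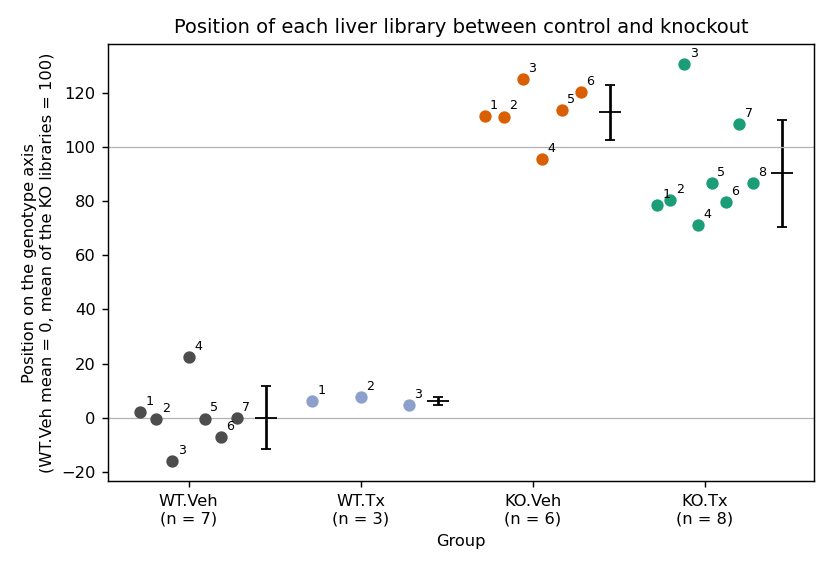
Position of each of the 24 liver libraries on the axis from control to knockout, by group, with the library number beside each point. The scale has no unit (0 is the WT.Veh mean, 100 the mean of the 14 KO libraries), and the bars to the right of the points give the group mean ± SD. KO.Tx 3 lies above every KO.Veh library, KO.Tx 7 lies among them, the other 6 KO.Tx libraries lie below them, and all KO.Tx libraries lie far above WT.Veh.

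The mean position of KO.Tx was 90.3 ± 19.7 (SD, n = 8), which is 79.9% of the KO.Veh mean of 112.9 ± 10.2 (SD, n = 6). The difference of -22.6 was past the threshold (exact two-sided permutation test over 3003 divisions of the 14 KO libraries, P = 0.0296). Without KO.Tx 3 it was -27.3 (exact permutation P = 0.00408). No measurement used here checks whether the vector was active in KO.Tx 3, so it enters the KO.Tx mean and the count of 0 calls against KO.Veh by its label alone. This call was lost without KO.Tx 1, KO.Tx 4, KO.Veh 3, or KO.Veh 6 (P from 0.0528 to 0.066 in the exact test), and it was lost among KO libraries with 4-digit animal numbers (difference -20.7, exact P = 0.0635). A library's own values also enter the axis. When each library was placed on an axis made without it, the mean of KO.Tx was 85.2 and that of KO.Veh 111.1, so that, measured from the WT.Veh mean of 7.8, KO.Tx lay at 74.9% of the KO.Veh distance. The difference was -25.9 (exact permutation P = 0.0196), and KO.Tx 7 moved to 93.6, near the lowest KO.Veh library at 92.4.

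Growth hormone, released in a sex-dependent pattern, controls genes of mouse liver through STAT5, and CUX2 is a transcription factor of female liver. *Cux2* was at 32.4, 42.4, and 76.6 CPM in WT.Veh and at 0.373, 17, and 23.3 CPM in KO.Tx. No KO.Tx library reached the lowest control, and KO.Tx 3 (0.373 CPM) and KO.Tx 7 (0.646 CPM) were below all others of their group. The log2 fold change was -1.91 (SE 0.576, adjusted P = 0.0409 from edgeR). In KO.Veh, *Cux2* was at 0.417, 1.59, and 5.16 CPM, and 6 of 8 KO.Tx libraries were above that range. The difference between KO.Tx and KO.Veh was 2.67 on the log2 scale (95% interval 1.21 to 4.14, adjusted P = 0.537 from edgeR), and DESeq2 called it (2.66, adjusted P = 0.0391). In edgeR without KO.Tx 3 it was 2.86, which was called (adjusted P = 0.0435 from edgeR), and the difference from WT.Veh lost its call in 13 of 23 alternative settings, which included leaving out any of KO.Tx 2, 4, 5, 6, and 8 and WT.Veh 3, 5, 6, and 7.

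*Cyp2c69* was at 40.0, 252, and 349 CPM in WT.Veh and at 0.581, 11.2, and 28.9 CPM in KO.Tx. The groups did not overlap (17.8-fold lower in KO.Tx, log2 fold change -4.16, SE 0.658, adjusted P = 0.000324 from edgeR). Its level in KO.Veh was 0.94 to 7.21 CPM, and the interval of the difference between KO.Tx and KO.Veh was 0.74 to 3.75 on the log2 scale (adjusted P = 0.66 from edgeR). *Cyp2c40* fell from 66.8 to 315 CPM to 4.06 to 61 CPM (6.1-fold lower, adjusted P = 0.000487 from edgeR). Both genes encode cytochrome P450 enzymes of the Cyp2c cluster on chromosome 19, whose near-identical members can share reads. *Slc22a26*, an organic anion transporter gene, was at 35.1 to 158 CPM in WT.Veh and at 0.912 to 24.9 CPM in KO.Tx (log2 fold change -2.53, adjusted P = 0.00223 from edgeR). For all these genes the lowest KO.Tx value was that of KO.Tx 3.

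*Igfbp2*, an IGF binding protein, was at 283, 786, and 856 CPM in WT.Veh, at 31.9, 135, and 165 CPM in KO.Tx, and at 23.5, 58.8, and 113 CPM in KO.Veh. KO.Tx was below every control in 8 of 8 libraries, as the choice of this gene required, and KO.Tx 3 was the lowest of its group. Relative to WT.Veh, the log2 fold change was -2.38 in KO.Tx and -3.38 in KO.Veh (adjusted P = 0.000143 and 8.94e-06 from edgeR). *Igfals*, which encodes the subunit that keeps IGF1 in the circulation, was at 143 to 210.2 CPM in WT.Veh and at 35.2 to 95.6 CPM in KO.Tx, with no overlap (log2 fold change -1.09, adjusted P = 7.95e-05 from edgeR). *Igf1* itself, named after its values were seen, differed by -0.46 on the log2 scale in KO.Tx (adjusted P = 0.0649 from edgeR) and by -0.89 in KO.Veh (adjusted P = 0.000613 from edgeR), and its interval between the lipodystrophic groups was 0.09 to 0.77 (adjusted P = 0.704 from edgeR).

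Of the 16 genes listed for the growth hormone axis, 2 rose and 3 fell in KO.Tx relative to WT.Veh (all genes: 3.04% and 1.83%), with a median of -0.18 (-0.08 with genes at the count floor put at their bound), against 2 and 5 in KO.Veh (all genes: 5.12% and 3.36%). The members that rose are higher in male mouse liver. *Mup20*, the major urinary protein darcin, belongs to a family of near-identical genes that can share reads. It was at 8.56, 40.5, and 302 CPM in WT.Veh and at 119, 341, and 5043 CPM in KO.Tx. The groups overlapped, through WT.Veh 4 at 302 CPM, and KO.Tx 7 (5043 CPM) and KO.Tx 3 (1213 CPM) were the highest. The log2 fold change was 3.76 (SE 0.887, adjusted P = 0.00913 from edgeR), against 3.59 in KO.Veh. *Elovl3*, a fatty acid elongase named after its values were seen, was at 0.691 to 10.7 CPM in WT.Veh and at 5.27 to 21.4 CPM in KO.Tx (log2 fold change 1.95, adjusted P = 0.0112 from edgeR).

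**Figure D2:**
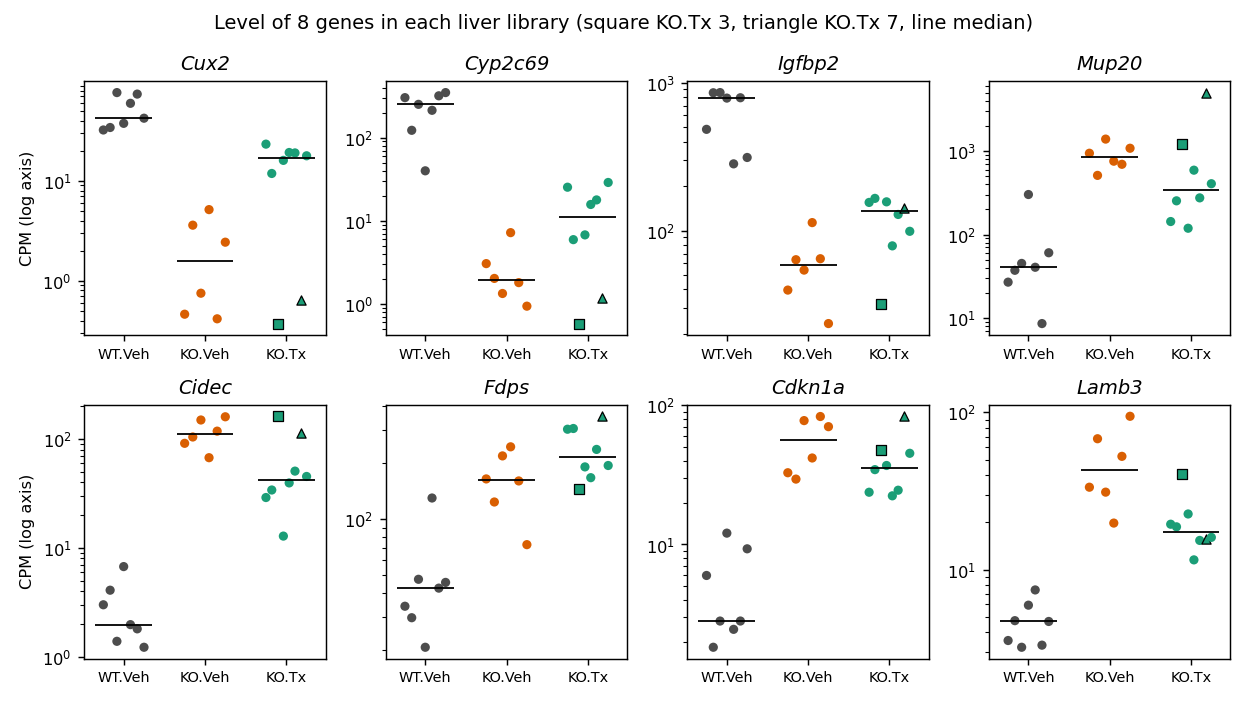
CPM of 8 genes in each WT.Veh, KO.Veh, and KO.Tx library on log axes, 1 point a library, with the median as a line. KO.Tx 3 (square) and KO.Tx 7 (triangle) are the lowest KO.Tx libraries for *Cux2* and *Cyp2c69* and the highest for *Mup20* and *Cidec*, and both lie above all WT.Veh libraries for *Fdps* and *Cdkn1a*.

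Of 31 listed genes of drug metabolism, 12 fell and 2 rose in KO.Tx relative to WT.Veh (all genes: 1.83% and 3.04%), with a median of -0.61, against 19 and 2 (all genes: 3.36% and 5.12%) with a median of -1.04 in KO.Veh. *Cyp1a2*, which metabolizes caffeine, was at 162, 329.8, and 438 CPM in WT.Veh and at 109, 135, and 204 CPM in KO.Tx (log2 fold change -1.14, adjusted P = 8.12e-05 from edgeR). *Cyp3a44*, a gene higher in female than in male liver, was at 1.43 to 22.2 CPM in WT.Veh and at 0 to 0.344 CPM in KO.Tx, 49.4-fold lower with no overlap (adjusted P = 6.66e-05 from edgeR). *Cyp3a16* and *Cyp3a41a*, near-identical relatives named after their values were seen, were called lower too (adjusted P = 0.000124 and 0.00304 from edgeR), and reads may be shared between the copies. *Fmo5* was 1 of the 2 listed genes that rose, at 260.2 to 396 CPM in WT.Veh and 461 to 936 CPM in KO.Tx, with no overlap (log2 fold change 1.14, adjusted P = 5.72e-06 from edgeR). Among libraries with 3-digit animal numbers, 2 members of the list fell and 1 rose. The count of 2 that rose was 1 without KO.Tx 4, WT.Veh 1, WT.Veh 2, WT.Veh 3, or WT.Veh 6.

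Genes outside the lists were also among the lowest. *Cyp2c23* encodes an epoxygenase that acts on arachidonic acid. It was at 142, 247, and 264 CPM in WT.Veh and at 45.8, 53.7, and 81.9 CPM in KO.Tx, with no overlap (log2 fold change -1.90, SE 0.149, adjusted P = 1.98e-09 from edgeR). KO.Veh had 52.5 to 80.3 CPM, and the difference between the lipodystrophic groups was -0.15 (95% interval -0.46 to 0.16). *Enho*, which encodes the secreted peptide adropin, fell from 10.9 to 26.4 CPM in WT.Veh to 1.87 to 5.71 CPM in KO.Tx (log2 fold change -2.35, adjusted P = 1.33e-06 from edgeR). *Serpinb1a*, a leukocyte elastase inhibitor, fell from 15.8 to 41.7 CPM to 3.69 to 13.6 CPM (log2 fold change -2.06, adjusted P = 4.9e-05 from edgeR). For *Spsb4*, the difference from WT.Veh was -1.63 in KO.Tx and -0.93 in KO.Veh on the log2 scale, with an interval of -1.26 to -0.15 between the lipodystrophic groups (adjusted P = 0.704 from edgeR).

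The enzymes of cholesterol synthesis convert acetyl-CoA to cholesterol through mevalonate, squalene, and lanosterol, and the transcription factor SREBP2 activates their genes together when sterol is low in the endoplasmic reticulum membrane. Of 22 listed genes of sterol synthesis and uptake, 16 rose and 0 fell in KO.Tx relative to WT.Veh (all genes: 3.04% and 1.83%), and all 22 log2 fold changes were above 0, with a median of 1.16. In KO.Veh, 9 rose and 0 fell (all genes: 5.12% and 3.36%), with a median of 0.84. None of the 22 was called between the lipodystrophic groups, where the median was 0.34, so a difference between 16 and 9 was not shown. Among libraries with 3-digit numbers, 7 rose.

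The proximal promoters of members of the mevalonate and lanosterol steps are shown here because the members rose together. The windows run from 250 bases before to 50 bases after the RefSeq start on GRCm38.p6, 5′ to 3′ on the gene's strand, for *Hmgcs1* (chr13:119690101-119690400, plus strand), *Mvd* (chr8:122443373-122443672, minus strand), and *Nsdhl* (chrX:72918271-72918570, plus strand). Capitals mark the CCAAT box (ATTGG, or CCAAT on the other strand) and, in *Hmgcs1*, the sterol regulatory element searched as TCACNCCAC or GTGGNGTGA.
*Hmgcs1*: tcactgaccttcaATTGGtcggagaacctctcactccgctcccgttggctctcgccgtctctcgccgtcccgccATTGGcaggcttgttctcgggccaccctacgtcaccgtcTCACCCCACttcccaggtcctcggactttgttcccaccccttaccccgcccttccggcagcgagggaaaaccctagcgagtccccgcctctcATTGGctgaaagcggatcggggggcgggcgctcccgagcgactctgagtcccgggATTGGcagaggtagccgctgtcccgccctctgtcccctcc
*Mvd*: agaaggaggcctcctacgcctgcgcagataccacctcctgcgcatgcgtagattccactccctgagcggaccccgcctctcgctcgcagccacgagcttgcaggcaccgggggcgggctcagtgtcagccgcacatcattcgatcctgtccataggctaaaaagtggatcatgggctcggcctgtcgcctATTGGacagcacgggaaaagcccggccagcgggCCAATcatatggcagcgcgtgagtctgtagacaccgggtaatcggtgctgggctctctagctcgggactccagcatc
*Nsdhl*: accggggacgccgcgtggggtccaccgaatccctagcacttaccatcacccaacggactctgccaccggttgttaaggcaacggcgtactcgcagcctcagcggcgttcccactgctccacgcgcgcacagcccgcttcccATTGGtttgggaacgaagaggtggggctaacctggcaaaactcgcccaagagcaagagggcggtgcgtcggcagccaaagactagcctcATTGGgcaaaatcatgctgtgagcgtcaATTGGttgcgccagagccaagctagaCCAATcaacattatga
Of the 22 listed genes, 14 matched a RefSeq window. All 14 hold a CCAAT box, a motif bound by NF-Y, against 41.1% of the 27025 genes with a window. The sterol regulatory element in these letters was in 1 of 14, *Hmgcs1*, against 1.44% of genes. The letters were chosen with the list in view, and a match is a description of the sequence and not a binding site.

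*Hmgcs1*, which makes HMG-CoA for this pathway and was named after its values were seen, was at 47.8, 80.9, and 106 CPM in WT.Veh and at 152, 207, and 322 CPM in KO.Tx, with no overlap (log2 fold change 1.54, adjusted P = 0.000258 from edgeR). *Fdps*, which makes farnesyl diphosphate, was at 20.6, 42.7, and 129 CPM in WT.Veh and at 145, 214, and 354 CPM in KO.Tx. Every KO.Tx library was above every control (log2 fold change 2.24, adjusted P = 0.000184 from edgeR). KO.Veh lay between 72.9 and 243 CPM and overlapped the controls, and the interval of its difference from KO.Tx was -0.17 to 1.23. *Mvd*, the decarboxylase of the mevalonate steps, rose from 1.87 to 8.31 CPM in WT.Veh to 11.5 to 26.5 CPM in KO.Tx (log2 fold change 1.85, adjusted P = 0.000143 from edgeR). *Lss*, which closes the sterol rings, rose from 14.5 to 27.1 CPM to 32.5 to 59.7 CPM (log2 fold change 1.11, adjusted P = 6.46e-05 from edgeR).

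**Figure D3:**
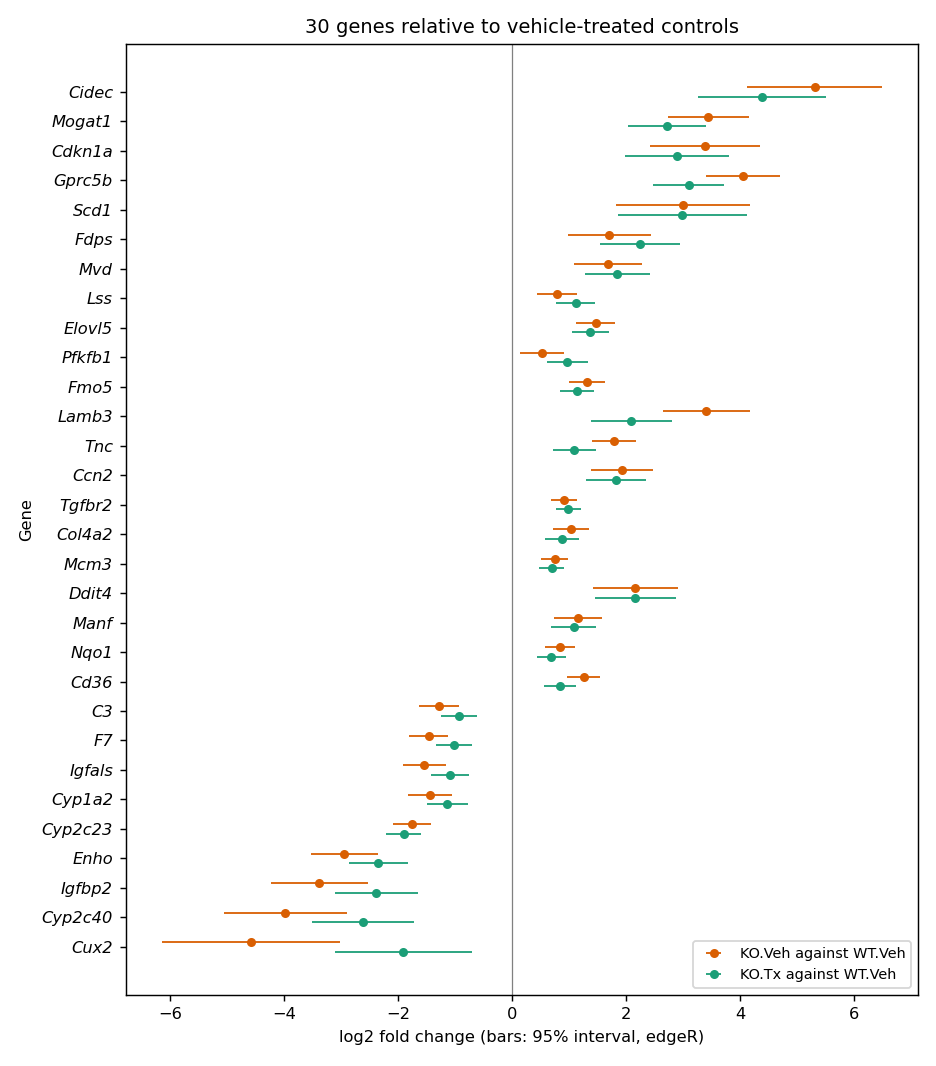
Log2 fold change of 30 genes in KO.Tx (green) and KO.Veh (orange) relative to the same 7 WT.Veh libraries, with 95% intervals from edgeR as bars. *Fdps*, *Mvd*, and *Lss* lie farther from 0 in KO.Tx, whereas *Cidec*, *Lamb3*, and *Cux2* lie nearer to 0, and edgeR called none of these differences between the lipodystrophic groups.

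Fatty acid synthesis genes were raised in part. Of 15 listed genes, 9 rose and 1 fell in KO.Tx (median 0.72, all genes: 3.04% and 1.83%), against 7 and 1 in KO.Veh (median 0.87, all genes: 5.12% and 3.36%), and 4 rose among libraries with 3-digit numbers. *Scd1*, the desaturase that makes oleate, was at 65.1, 898, and 1895 CPM in WT.Veh and at 4045, 6333, and 8890 CPM in KO.Tx. The groups did not overlap (log2 fold change 2.98, SE 0.543, adjusted P = 0.00117 from edgeR), and KO.Veh had 3421 to 8472 CPM. *Elovl5*, an elongase of polyunsaturated fatty acids, rose from 319.7 to 534 CPM to 688 to 1403 CPM (log2 fold change 1.37, adjusted P = 1.14e-06 from edgeR). *Fads2*, the Δ6-desaturase, had 348 to 905 CPM in WT.Veh and 692 to 2111 CPM in KO.Tx (log2 fold change 1.10, adjusted P = 0.000402 from edgeR). *Mlxipl*, which encodes the carbohydrate-responsive factor ChREBP, fell from 179 to 253 CPM to 88 to 167 CPM with no overlap (log2 fold change -0.81, adjusted P = 4.26e-05 from edgeR). *Fasn*, the synthase itself, named after its values were seen, was at 159 to 441 CPM and 197 to 814 CPM (log2 fold change 0.53, adjusted P = 0.296 from edgeR).

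Of 10 measured genes of triglyceride assembly, 3 rose in KO.Tx, where 3.04% of all genes rose, and 3 in KO.Veh, where 5.12% did. *Mogat1*, a monoacylglycerol acyltransferase, was at 0.737, 1.33, and 3.28 CPM in WT.Veh, at 5.18, 11.3, and 19.8 CPM in KO.Tx, and at 12.8, 16.9, and 31.9 CPM in KO.Veh. KO.Tx did not overlap WT.Veh (log2 fold change 2.72, adjusted P = 1.15e-05 from edgeR), and its interval relative to KO.Veh was -1.32 to -0.12 (adjusted P = 0.704 from edgeR). *Lpin2*, a phosphatidate phosphatase, rose to 263 CPM or more in every KO.Tx library from 205 CPM or less in WT.Veh (log2 fold change 1.11, adjusted P = 1.67e-05 from edgeR). *Gpam*, the acyltransferase of the first step, rose to 137 to 342 CPM from 80.0 to 129.8 CPM (log2 fold change 0.89, adjusted P = 0.000231 from edgeR).

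Of 16 listed genes of lipid droplets and fatty acid uptake, 6 rose and 0 fell in KO.Tx (all genes: 3.04% and 1.83%), against 7 and 0 in KO.Veh (all genes: 5.12% and 3.36%). *Cidec*, which fuses droplets in adipocytes and in fatty liver, was at 1.22, 1.97, and 6.72 CPM in WT.Veh and at 12.8, 42.4, and 162 CPM in KO.Tx. WT.Tx had 1.90 to 6.70 CPM, within the WT.Veh range. Every KO.Tx library was above every control, and KO.Tx 3 (162 CPM) and KO.Tx 7 (114 CPM) were above the others of their group. It was 21-fold higher (log2 fold change 4.39, SE 0.539, adjusted P = 2.21e-05 from edgeR), against a log2 fold change of 5.31 in KO.Veh, and the interval between the lipodystrophic groups was -1.87 to 0.03. *Cidea*, its relative, named after its values were seen, was at or under 3 counts in every WT.Veh library, at 0.755, 2.96, and 28.5 CPM in KO.Tx, and at 5.6, 19.6, and 50.4 CPM in KO.Veh. Against the floor of 3 counts per library, its group mean was at least 61.3-fold higher in KO.Tx (8.79 CPM) and at least 155-fold higher in KO.Veh (22.2 CPM). The KO.Tx mean lay above the KO.Tx median through KO.Tx 3, KO.Tx 7 (20.7 CPM), and KO.Tx 8 (10.8 CPM), so this bound does not hold for each library.

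*Plin4*, a droplet coat protein, rose from 9.73 to 32.4 CPM in WT.Veh to 51.6 to 112 CPM in KO.Tx (log2 fold change 2.09, adjusted P = 1.34e-06 from edgeR). *Cd36*, the fatty acid translocase, was at 91.4, 148, and 187 CPM in WT.Veh, 211, 252, and 345 CPM in KO.Tx, and 312, 350.0, and 386 CPM in KO.Veh. KO.Tx did not overlap the controls (log2 fold change 0.84 against 1.25 in KO.Veh). It overlapped KO.Veh through 1 library alone, KO.Tx 3 (345 CPM), and the other KO.Tx libraries lay below every KO.Veh library. The interval of the difference between KO.Tx and KO.Veh was -0.69 to -0.13 (adjusted P = 0.66 from edgeR). *Plin2*, the main hepatocyte coat protein, named after its values were seen, had 468 to 1218 CPM in WT.Veh and 604 to 1185 CPM in KO.Tx (log2 fold change 0.04, 95% interval -0.33 to 0.40, adjusted P = 0.958 from edgeR).

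Genes of fat oxidation were mostly not called. Of 21 listed genes of fatty acid oxidation and ketogenesis, 0 rose and 2 fell in KO.Tx (all genes: 3.04% and 1.83%), with a median of -0.13. *Cyp4a10*, a fatty acid ω-hydroxylase, was at 838, 1143, and 1678 CPM in WT.Veh and at 418, 632, and 854 CPM in KO.Tx, with 7 of 8 KO.Tx libraries below every control (log2 fold change -0.90, adjusted P = 0.00275 from edgeR). *Acot1*, an acyl-CoA thioesterase, differed by -0.88 on the log2 scale (adjusted P = 0.0417 from edgeR), which lost its call in 13 of 23 alternative settings, which included leaving out any of KO.Tx 1, 2, 3, 5, 7, and 8 and WT.Veh 2, 4, and 6. Among 20 genes of glucose metabolism, 4 rose and 1 fell in KO.Tx (2 fell without KO.Tx 3), against 2 and 1 in KO.Veh (all genes: 5.12% and 3.36%). *Pfkfb1*, the liver form of the bifunctional enzyme that sets the level of fructose 2,6-bisphosphate, was at 13.3 to 23.8 CPM in WT.Veh and at 24.2 to 64.1 CPM in KO.Tx, with no overlap (log2 fold change 0.97, adjusted P = 0.000718 from edgeR). The interval of its difference from KO.Veh was 0.06 to 0.81 (adjusted P = 0.704 from edgeR).

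Of 22 listed genes of mitosis, 5 rose in KO.Tx relative to WT.Veh (all genes: 3.04%), and all 22 log2 fold changes were above 0, with a median of 0.89. In KO.Veh 20 of the 22 rose (all genes: 5.12%), with a median of 1.35, and none was called between the lipodystrophic groups (median -0.40). *Ccnb1*, the cyclin of mitotic entry, was at 0.187, 0.332, and 0.635 CPM in WT.Veh and at 0.477, 0.925, and 2.86 CPM in KO.Tx (log2 fold change 1.54, adjusted P = 0.0119 from edgeR). The groups overlapped, and KO.Tx 3 was the highest. The count of 5 rested on single libraries: it was 1 without KO.Tx 3, 9 without KO.Tx 5, 2 without WT.Veh 7, and 3 without KO.Tx 1, KO.Tx 7, KO.Tx 8, WT.Veh 1, WT.Veh 2, or WT.Veh 6. DESeq2 called 12, and 1 rose among libraries with 3-digit numbers. *Mki67*, the usual marker of cycling cells, named after its values were seen, was at 1.22 to 2.51 CPM in WT.Veh, 1.52 to 7.26 CPM in KO.Tx (adjusted P = 0.0874 from edgeR), and 2.14 to 9.06 CPM in KO.Veh (adjusted P = 0.00765 from edgeR). The interval of its difference between KO.Tx and KO.Veh was -1.06 to 0.20 (adjusted P = 0.774 from edgeR).

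Of 24 listed genes of DNA replication, 8 rose and 1 fell in each comparison with WT.Veh (none fell in KO.Tx without WT.Veh 3). Of all genes, 3.04% rose and 1.83% fell in KO.Tx, and 5.12% and 3.36% in KO.Veh. *Mcm3*, a subunit of the replicative helicase, was at 4.58, 4.83, and 5.01 CPM in WT.Veh and at 6.64, 7.56, and 11 CPM in KO.Tx. The groups were separate (log2 fold change 0.70, adjusted P = 9.21e-05 from edgeR), and the interval between KO.Tx and KO.Veh was -0.28 to 0.17. *E2f1*, a transcription factor of the G1/S transition, had log2 fold changes of 0.88 in KO.Tx and 1.22 in KO.Veh (adjusted P = 0.00108 and 2.63e-05 from edgeR).

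Of 16 listed p53 targets, 5 rose in KO.Tx, where 3.04% of all genes rose, and 8 in KO.Veh, where 5.12% did. *Cdkn1a* encodes the cyclin-dependent kinase inhibitor p21, which stops the cell cycle. It was at 1.83, 2.82, and 12.1 CPM in WT.Veh and at 22.3, 35.7, and 83.3 CPM in KO.Tx. Every KO.Tx library was above every WT.Veh library (7.4-fold higher, log2 fold change 2.89, SE 0.441, adjusted P = 0.000226 from edgeR). In WT.Tx, *Cdkn1a* was at 10.4, 11.6, and 27.2 CPM, which overlapped KO.Tx, and its difference from WT.Veh was not tested. The interval between KO.Tx and KO.Veh was -1.33 to 0.36. *Zmat3* (log2 fold change 0.81) and *Eda2r* (1.49), further p53 targets, were raised by 1.17 and 2.22 in KO.Veh. Both had intervals below 0 between the lipodystrophic groups (-0.63 to -0.09 and -1.24 to -0.22), at adjusted P = 0.704 and 0.682 from edgeR.

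Stellate cells are the main source of fibrillar collagen in injured liver, and in bulk tissue fewer cells of a type and less RNA per cell cannot be told apart. Of 18 listed collagens, 3 rose in KO.Tx, where 3.04% of all genes rose, and 7 in KO.Veh, where 5.12% did (5 in KO.Tx without WT.Veh 4, and 0 among libraries with 3-digit numbers). Without KO.Tx 3, 1 also fell. *Col4a2*, a basement membrane chain, was at 16.3, 19.1, and 23.8 CPM in WT.Veh and at 25.6, 33, and 59 CPM in KO.Tx, with no overlap (log2 fold change 0.88, adjusted P = 0.000192 from edgeR). Its partner *Col4a1* rose by 0.84 (adjusted P = 0.00117 from edgeR), and *Col27a1*, a fibrillar collagen, by 1.08 against 1.72 in KO.Veh, with an interval of -1.07 to -0.19 between the lipodystrophic groups (adjusted P = 0.682 from edgeR). The main fibrillar collagens, named after their values were seen, were not called in KO.Tx, and *Col1a1* was not called in KO.Veh either. *Col1a1* was at 5.31, 6.26, and 23.5 CPM in WT.Veh and at 4.84, 13.2, and 59.9 CPM in KO.Tx (log2 fold change 1.10, 95% interval 0.10 to 2.10, adjusted P = 0.172 from edgeR). In KO.Veh its log2 fold change was 1.46 (adjusted P = 0.0576 from edgeR). The *Col1a1* interval between the lipodystrophic groups was -1.36 to 0.64 (adjusted P = 0.876 from edgeR). *Col3a1* differed by 0.59 on the log2 scale in KO.Tx (adjusted P = 0.315 from edgeR) and rose by 1.08 in KO.Veh (adjusted P = 0.0452 from edgeR). Its interval between the lipodystrophic groups was -1.20 to 0.22 (adjusted P = 0.774 from edgeR).

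Of 25 listed genes of matrix glycoproteins and remodelling, 9 rose and 0 fell in KO.Tx (all genes: 3.04% and 1.83%), against 12 and 0 in KO.Veh (all genes: 5.12% and 3.36%), and 5 rose among libraries with 3-digit numbers. *Lamb3*, the laminin β3 chain, was at 3.21, 4.68, and 7.42 CPM in WT.Veh, at 11.5, 17.4, and 40.8 CPM in KO.Tx, and at 19.8, 43, and 94.5 CPM in KO.Veh. No KO.Tx library overlapped the controls, and 6 of 8 lay below every KO.Veh library. The log2 fold change was 2.09 (SE 0.343, adjusted P = 0.000416 from edgeR), against 3.41 in KO.Veh, and the difference between these groups was -1.32 (95% interval -1.99 to -0.64, adjusted P = 0.537 from edgeR). DESeq2 called that difference (adjusted P = 0.0235), and so did edgeR without KO.Tx 3 (difference -1.55, adjusted P = 0.03). *Tnc*, the wound matrix protein tenascin C, was at 0.995 to 1.7 CPM in WT.Veh, 2.16 to 4.19 CPM in KO.Tx, and 2.87 to 6.2 CPM in KO.Veh. It rose by 1.09 in KO.Tx (adjusted P = 0.00021 from edgeR), and its difference from KO.Veh of -0.70 (95% interval -1.06 to -0.35) was called in edgeR only without KO.Tx 3 (adjusted P = 0.03).

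Of 15 genes listed for the TGF-β pathway, 3 rose in KO.Tx, where 3.04% of all genes rose, and 4 in KO.Veh, where 5.12% did. *Tgfbr2*, the type II receptor, was at 14.8, 17.2, and 21.1 CPM in WT.Veh and at 30.1, 34.1, and 49.9 CPM in KO.Tx. The groups did not overlap (log2 fold change 0.99, SE 0.107, adjusted P = 4.98e-07 from edgeR), and the difference from KO.Veh was 0.08 (95% interval -0.14 to 0.30). *Ccn2*, a matricellular target of the pathway, rose from 1.03 to 4.91 CPM to 8.96 to 18.3 CPM (log2 fold change 1.82, adjusted P = 4.91e-05 from edgeR). The 3 WT.Tx libraries had 5.82 to 9.51 CPM of *Ccn2*, above every WT.Veh library, and that difference was not tested. *Tgfb1*, the main ligand in liver fibrosis, named after its values were seen, was at 13.5 to 18.6 CPM and 12.6 to 36.5 CPM (adjusted P = 0.416 from edgeR).

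Markers of nonparenchymal cells were examined beside these genes, in KO.Tx relative to WT.Veh, where 3.04% of all genes rose and 1.83% fell. Of 10 stellate cell markers, 2 rose, the actin-cytoskeleton genes *Tagln* (log2 fold change 1.06, adjusted P = 9.14e-06 from edgeR) and *Acta2* (0.64, adjusted P = 0.0156 from edgeR), which lost its call without WT.Veh 5 or WT.Veh 7. The summed level of the list was 281 to 371 CPM in WT.Veh, 338 to 453 CPM in KO.Tx, and 345 to 459.6 CPM in KO.Veh. Of 17 macrophage markers, *Cd9* rose (log2 fold change 0.97, adjusted P = 0.00921 from edgeR), with a summed level of 561 to 863 CPM in WT.Veh and 485 to 873 CPM in KO.Tx. The count of 1 became 6 without WT.Veh 4, 4 without KO.Tx 2 or KO.Tx 4, 2 without KO.Tx 7, and 6 with DESeq2. Of 12 endothelial markers, *Lyve1*, a hyaluronan receptor of sinusoids and lymphatics, rose from 3.81 to 9.9 CPM to 13 to 27.4 CPM with no overlap (log2 fold change 1.78, adjusted P = 1.45e-06 from edgeR), and *Vwf* rose by 0.83. The sum over the endothelial list was 339 to 445 CPM in WT.Veh and 331 to 450.3 CPM in KO.Tx. No lymphocyte marker of 12 was called, and 1 was called lower without KO.Tx 1. The lymphocyte sum was 21.6 to 33.6 CPM in WT.Veh and 16.3 to 38.5 CPM in KO.Tx.

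The cholangiocyte markers were summed too, at 29.1 to 53.1 CPM in WT.Veh, 52.1 to 246 CPM in KO.Tx, and 87.6 to 199 CPM in KO.Veh. The sum mostly reflects 1 gene, *Spp1*. Medians of *Spp1* alone were 32.6, 57.5, and 107 CPM in WT.Veh, KO.Tx, and KO.Veh, against medians of the sum of 42.1, 66.0, and 118 CPM. Of the 10 markers, 2 rose and 1 fell in KO.Tx (all genes: 3.04% and 1.83%), and the fall lost its call without any of KO.Tx 1, 2, 4, 5, 6, 7, and 8 and WT.Veh 3, 4, and 5. *Spp1*, osteopontin, was at 23.3, 32.6, and 45.3 CPM in WT.Veh and at 44.9, 57.5, and 224 CPM in KO.Tx (log2 fold change 1.32, adjusted P = 0.00545 from edgeR), and KO.Tx 3 at 224 CPM was far above the others. The defining marker *Krt19* was at 0.681 to 1.33 CPM in WT.Veh and 0.59 to 4.06 CPM in KO.Tx (adjusted P = 0.1 from edgeR). The part of cell composition in the matrix results was not tested.

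Of 9 measured hepatocyte markers, 0 were called in KO.Tx (all genes: 4.87%) against 3 lower in KO.Veh (all genes: 3.36% lower), and *Alb* was at 58728 to 104793 CPM in WT.Veh and 52493 to 113567 CPM in KO.Tx. Hepatocyte markers summed to 76207 CPM or more in every KO.Tx and WT.Veh library. Blood and muscle genes differed between the groups. *Hbb-bs*, a β-globin, was at 97.7, 449.8, and 816 CPM in WT.Veh and at 436, 1384, and 3104 CPM in KO.Tx (log2 fold change 1.89, adjusted P = 0.0379 from edgeR), with 269 to 1442 CPM in KO.Veh. It lost its call without any of KO.Tx 2, 4, 5, and 7 and WT.Veh 1, 2, 4, 5, and 7. *Acta1*, skeletal muscle actin, was at 6.74 CPM in KO.Tx 2 and 4.48 CPM in KO.Tx 5 and at or under 3 counts in every WT.Veh library, and its call was lost without WT.Veh 4 and in DESeq2. The count of 4 called among 13 measured markers of adipocytes, muscle, pancreas, and blood was 1 without KO.Tx 2, KO.Tx 5, WT.Veh 1, WT.Veh 2, WT.Veh 5, or WT.Veh 7, 2 without KO.Tx 4, KO.Tx 7, or WT.Veh 3, and 0 without WT.Veh 4. The list summed to 178 to 1260 CPM in WT.Veh, 698.7 to 4676 CPM in KO.Tx, and 427 to 2218 CPM in KO.Veh. *Adipoq* and *Lep* were at 0 counts in all KO.Tx libraries. *Lep* was at 0 counts in all WT.Veh and KO.Veh libraries too, and *Adipoq* had a median of 0 CPM in WT.Veh (highest 0.609 CPM), so neither separated the groups. The part of blood in the other differences was not tested.

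Of 20 interferon response genes, 1 fell in KO.Tx (median -0.27), where 1.83% of all genes fell, and 9 fell in KO.Veh (median -0.57), where 3.36% of all genes fell. *Ifit1*, an antiviral effector, was at 11.8, 19.1, and 21.9 CPM in WT.Veh and at 4.26, 9.53, and 13.1 CPM in KO.Tx (log2 fold change -0.88, adjusted P = 0.00168 from edgeR). The count was 2 without KO.Tx 6, KO.Tx 7, KO.Tx 8, or WT.Veh 2. Of 24 genes of the acute phase and coagulation, 4 fell and 1 rose in KO.Tx (3 rose without WT.Veh 1, all genes: 1.83% and 3.04%), against 8 and 1 in KO.Veh (all genes: 3.36% and 5.12%). Complement *C3* fell from 7829 to 13869 CPM in WT.Veh to 3073 to 6793 CPM in KO.Tx with no overlap (log2 fold change -0.93, adjusted P = 0.000193 from edgeR). Coagulation factor *F7* fell from 113 to 153 CPM to 36.9 to 85.1 CPM with no overlap (log2 fold change -1.02, adjusted P = 5.86e-05 from edgeR), and the interval relative to KO.Veh was 0.12 to 0.77 (adjusted P = 0.696 from edgeR). The member that rose was *Serpina12*, vaspin, an inhibitor known as an adipokine, from 0.937 to 3.07 CPM to 7.96 to 73.3 CPM with no overlap (log2 fold change 3.69, adjusted P = 0.000176 from edgeR). KO.Tx 7 was its highest library.

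Of 23 genes of amino acid catabolism and the urea cycle, 3 fell in KO.Tx (median -0.07), where 1.83% of all genes fell. In KO.Veh 10 fell (median -0.52), where 3.36% of all genes fell, and none of the 23 was called between the lipodystrophic groups. *Oat*, ornithine aminotransferase, was at 919.6, 1127, and 1811 CPM in WT.Veh and at 382, 709, and 928 CPM in KO.Tx, with 1 KO.Tx library in the range of the controls (log2 fold change -0.96, adjusted P = 0.000638 from edgeR). *Cps1*, the first enzyme of the urea cycle, named after its values were seen, differed by -0.37 on the log2 scale in KO.Tx (adjusted P = 0.22 from edgeR) and of -0.93 in KO.Veh (adjusted P = 0.00155 from edgeR), and the interval between them was 0.16 to 0.94 (adjusted P = 0.691 from edgeR). The count of 3 was 5 without KO.Tx 2 or WT.Veh 2.

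**Figure D4:**
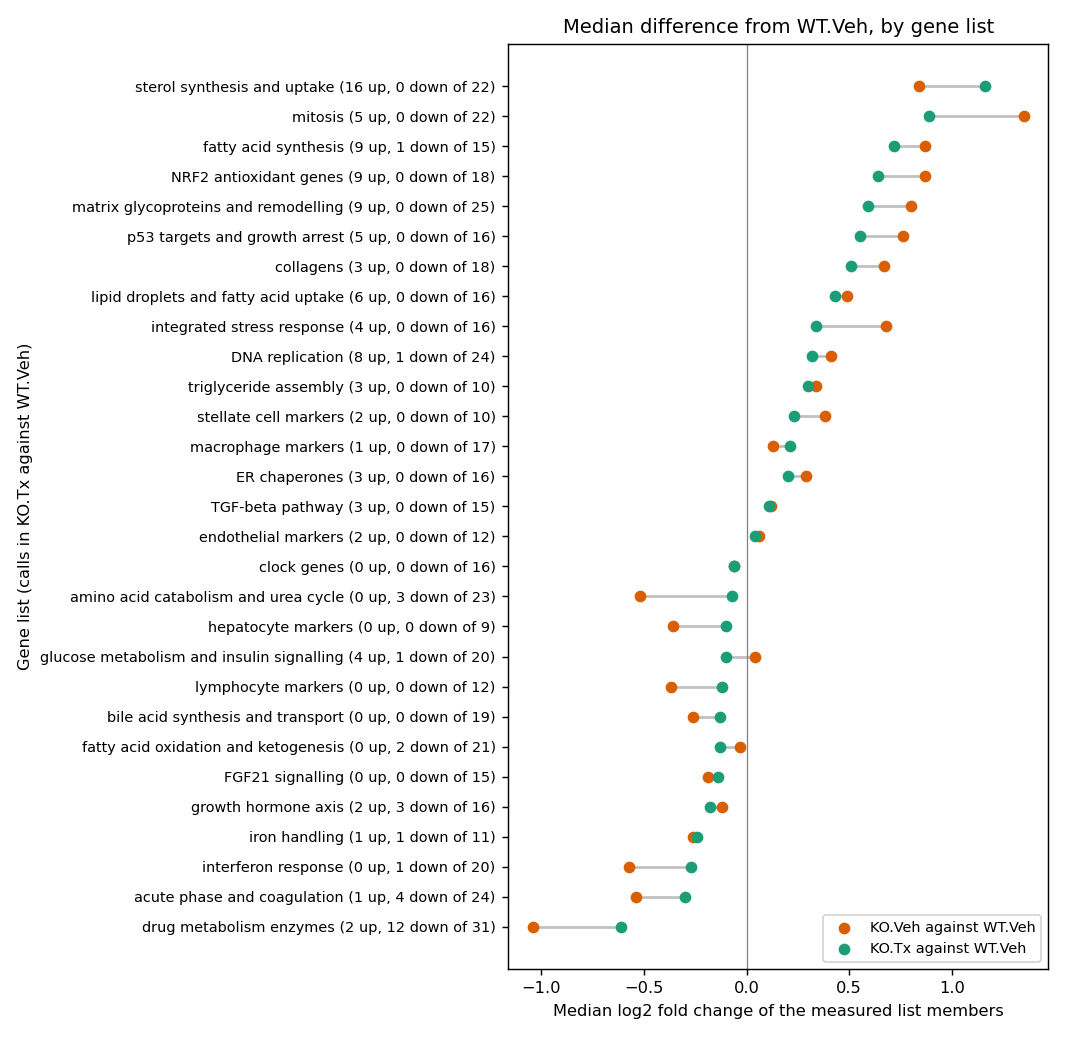
Median log2 fold change of the measured members of each gene list in KO.Tx (green) and KO.Veh (orange) relative to WT.Veh, ordered by the KO.Tx value, with the members called in KO.Tx in parentheses. The cholangiocyte and the adipocyte, muscle, pancreas, and blood lists are left out because their medians shift most when genes at the count floor are put at their bound, and that of the growth hormone axis is -0.08 in KO.Tx with such bounds. The KO.Tx median lies nearer to 0 than that of KO.Veh for mitosis, drug metabolism, interferon, and amino acid genes, and farther from 0 for sterol synthesis.

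Stress genes were raised in part. Of 16 listed genes of the integrated stress response, 4 rose in KO.Tx, where 3.04% of all genes rose, and 5 in KO.Veh, where 5.12% did. *Ddit4*, an inhibitor of mTORC1, was at 2.25, 3.36, and 4.28 CPM in WT.Veh and at 8.89, 13.2, and 29.5 CPM in KO.Tx (log2 fold change 2.16, SE 0.345, adjusted P = 0.000293 from edgeR). The groups were separate, and the difference from KO.Veh was 0.00 (95% interval -0.68 to 0.68). In WT.Tx, *Ddit4* was at 4.13, 13.6, and 14.5 CPM, and its difference from WT.Veh was not tested. Of 16 chaperones of the endoplasmic reticulum, 3 rose. *Manf*, a secreted stress factor, rose from 26.1 to 48.3 CPM to 48.5 to 106 CPM (log2 fold change 1.08, adjusted P = 0.000552 from edgeR), and *Hspa5*, the chaperone BiP, rose by 0.78 (adjusted P = 0.0023 from edgeR). Of 18 NRF2 antioxidant genes, 9 rose in KO.Tx and 12 in KO.Veh. *Nqo1*, a quinone reductase, was at 7.08, 9.17, and 11.2 CPM in WT.Veh and at 9.91, 13.6, and 17.4 CPM in KO.Tx (log2 fold change 0.69, adjusted P = 0.000395 from edgeR). Among libraries with 3-digit numbers, 3 of the 18 rose.

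Lists without a clear residual difference included that of bile acid synthesis and transport, with 0 of 19 called in KO.Tx (all genes: 4.87%) against 1 higher and 3 lower in KO.Veh (all genes: 5.12% and 3.36%). That list does not hold the bile acid transporter gene *Slc10a2*, which was called higher in KO.Tx (log2 fold change 3.03, adjusted P = 9.04e-07 from edgeR). Clock genes had 0 of 16 called by edgeR in either comparison (in KO.Tx, 1 rose by DESeq2, 1 rose when any single library of KO.Tx 1, 4, 6, and 7 or WT.Veh 2 and 7 was left out, and 3 rose without WT.Veh 6). Of 11 iron genes, *Tfrc*, the transferrin receptor, rose (log2 fold change 1.69, adjusted P = 0.00928 from edgeR) and *Id1*, a BMP target, fell (-1.22, adjusted P = 0.0223 from edgeR, not called without WT.Veh 2). Hepcidin, *Hamp*, named after its values were seen, was at 348, 991, and 1179 CPM in WT.Veh and at 0.145 to 858 CPM in KO.Tx, with KO.Tx 4 at 0.145 CPM, and it was not called (log2 fold change -1.51, 95% interval -3.27 to 0.24, adjusted P = 0.303 from edgeR).

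Genes outside the lists were among those with the highest ratio of KO.Tx to WT.Veh. *Gm48795* and *Gm7049* are predicted genes about which little is known. They lie side by side on opposite strands of chromosome 13 on GRCm38 (chr13:62813969-62815523 and chr13:62813076-62814787), overlap there, and may share reads. They rose from 0 to 0.688 and 0.272 to 0.656 CPM in WT.Veh to 6.38 to 15.4 and 1.7 to 17 CPM in KO.Tx (log2 fold changes 4.66 and 4.54, adjusted P = 3.1e-09 and 1.06e-07 from edgeR). *Slc10a2*, the sodium-dependent bile acid transporter best known from ileum and bile ducts, rose from 1.12, 2.75, and 5.57 CPM to 15.6, 27.2, and 32.8 CPM (log2 fold change 3.03, adjusted P = 9.04e-07 from edgeR). Its interval between the lipodystrophic groups was -0.75 to 0.38. *Snhg11*, a noncoding host of small nucleolar RNAs, rose by 2.96 in both groups (adjusted P = 2.6e-09 in KO.Tx and 3.88e-09 in KO.Veh from edgeR), with an interval of -0.43 to 0.42 between them. *Gprc5b*, an orphan receptor, was at 0.39 to 1.92 CPM in WT.Veh, 5.47 to 16.1 CPM in KO.Tx, and 9.74 to 21.9 CPM in KO.Veh, with KO.Tx 3 the highest of its group (log2 fold change 3.10 against 4.04, interval of the difference -1.47 to -0.42, adjusted P of the difference 0.537 from edgeR). *Smpd3*, neutral sphingomyelinase 2, rose by 2.79 (adjusted P = 0.000254 from edgeR).

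A few genes, named after their values were seen because DESeq2 or edgeR without KO.Tx 3 called them between the lipodystrophic groups, show both patterns of change. *Sorbs3*, which encodes the adhesion protein vinexin, was at 58.6, 68.2, and 92.3 CPM in WT.Veh, at 21.4, 27.7, and 33.2 CPM in KO.Veh, and at 19.9, 56.5, and 62.5 CPM in KO.Tx. In KO.Tx, 7 of 8 libraries were above all KO.Veh libraries, and KO.Tx 3 (19.9 CPM) was below them. The difference from WT.Veh was -0.51 on the log2 scale and was not called (adjusted P = 0.0657 from edgeR), and the difference from KO.Veh was 0.89 (95% interval 0.50 to 1.27, adjusted P = 0.331 from edgeR and 0.0106 from DESeq2). *Ang*, angiogenin, was at 248.6 to 649.9 CPM in WT.Veh, 48.3 to 118 CPM in KO.Veh, and 40.6 to 279 CPM in KO.Tx, with the lowest value again in KO.Tx 3 (difference from KO.Veh 1.31, 95% interval 0.61 to 2.01, adjusted P = 0.537 from edgeR and 0.0235 from DESeq2). *Klhdc7a*, which encodes a kelch-domain protein, moved the other way. It was at 41.6, 56, and 70.2 CPM in WT.Veh, 31.3, 41.1, and 45.3 CPM in KO.Veh, and 14.3, 21.9, and 43.9 CPM in KO.Tx. It fell by 1.27 in KO.Tx relative to WT.Veh (adjusted P = 1.27e-05 from edgeR), differed by -0.48 in KO.Veh (adjusted P = 0.072 from edgeR), and differed by -0.80 between the lipodystrophic groups (95% interval -1.15 to -0.45, adjusted P = 0.331 from edgeR and 0.0155 from DESeq2). In 7 of 8 KO.Tx libraries it was below every KO.Veh library, and KO.Tx 3 was not.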

How the data were processed

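Liver RNA of female mice was sequenced in 24 libraries. The authors deposited counts of reads per gene for 23972 genes, without normalization. The methods name Ensembl 102 and that genes at 0 in all samples were dropped. The submitters' processing notes name cutadapt 4.8, FastQC 0.11.8, STAR 2.7.8a, RSEM 1.3.3, and GRCm38, without order, so the whole numbers may be rounded RSEM estimates, which would split reads between near-identical genes. All 23972 genes held whole numbers, 0 columns lacked a sample, and 23926 genes were located in GENCODE M21. Replicates are separate animals by their numbers. The 64 pairs of libraries within KO.Tx, WT.Veh, and KO.Veh had a chi-square per degree of freedom of at least 14.1, so none was merged.

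Groups came from the library titles. edgeR 4.0.16 (R 4.3.3) was used for TMM scaling and quasi-likelihood tests (glmQLFit with robust = TRUE, glmQLFTest). A single model held all 4 groups, without covariates, for KO.Tx against WT.Veh, KO.Veh against WT.Veh, and KO.Tx against KO.Veh. The authors used DESeq2, here an alternative (version 1.42.0), with the same thresholds. Standard errors were derived from F and the log2 fold change. Log2 CPM use a prior count of 2, and 3 counts per library are the floor. The 31 lists hold 525 genes and are described by counts and medians, with no set test. Named genes are the 10 highest and 10 lowest called with no overlap and a mean log2 CPM of at least 1, up to 3 called per list by adjusted p, genes called by edgeR between the lipodystrophic groups (none), and Fgf21, Klb, Fgfr4, and Lmna. Others are said to be chosen after their values were seen. The members, lists, and rules were chosen with earlier results of these data known. Scripts were tested on simulated data. Alternatives were DESeq2, its size factors, filterByExpr, only the groups compared, digits of the animal number as a covariate or a subset, a gene length slope, libraries that stand apart left out, the adjusted p alone, and each library left out in turn. Promoter windows are from RefSeq. A few genes that the rule names are not reported here. Python 3.11.15 was used for summaries and figures.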

Additional observations from a re-analysis of the deposited data

Results flagged for a closer look

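The chosen genes gave 182 groups of 7 or 8 libraries that were tested for a single library far from the rest (its gap to the nearest other library, divided by the range of the group, above Dixon's 95% critical value), and 15 were marked. Chance marks about 1 in 20 groups. KO.Tx 3 was the marked library in 11 of the 15. It was the highest KO.Tx library for Gprc5b (ratio of gap to range 0.554), Gpam (0.648), Ccnb1 (0.527), Mcm3 (0.659), Col27a1 (0.552), Ccn2 (0.633), Spp1 (0.593), and Cftr (0.566), and the lowest for Igfbp2 (0.55), Igfals (0.829), and Herpud1 (0.559). These genes were named because they differed between the groups, and their values in 1 library are not independent of each other. KO.Tx 7 was the lowest for Gm7049 (0.616, at 1.7 CPM). In controls, WT.Veh 1 was the highest for C3 (0.593), WT.Veh 5 for Pgd (0.602), and WT.Veh 4 for Acta1 (1.0), the latter at 0.046 CPM where every other control library had 0 counts. No cause was tested.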

How the results depend on the processing

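The 1168 genes called between KO.Tx and WT.Veh became 533 among libraries with 3-digit animal numbers and 2192 with the adjusted p threshold alone, and were between 1010 and 1241 with any 1 library left out. The 2033 called between KO.Veh and WT.Veh became 3623 with the adjusted p alone. Between KO.Tx and KO.Veh, DESeq2 called 15 genes, the libraries with 4-digit numbers gave 2, and leaving out 1 library gave 0 to 61 (61 without KO.Tx 3). The 22.6 units by which KO.Tx lay below KO.Veh on the axis became -20.7 as a difference among 4-digit KO libraries (exact permutation P = 0.0635), and from -27.3 to -19.8 with 1 library left out, past the threshold except without KO.Tx 1, KO.Tx 4, KO.Veh 3, or KO.Veh 6. The fit of 4-digit libraries for KO.Tx against KO.Veh, both such placements on the axis (4-digit libraries, and each library on an axis made without it), and the list counts by setting were chosen after seeing the data. The cause of these shifts was not tested. Of the 86 called genes chosen by rule, 48 kept their call in every setting that tested them (Cftr was tested in 22 of the 23), 38 lost it in at least 1, and none changed direction. No paired analysis was possible because the numbers of the libraries are only names given in ascending order of animal number and no animal number is shared between groups. For genes at or under 3 counts in every library of a group, no fold is given other than a lower bound.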
